A study of Mus musculus with 16 samples.

Results

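Genes of peroxisome proliferator-activated receptor (PPAR) signaling, lipid droplets and fatty acid oxidation were followed in tumor RNA from 16 mice. The set was 38 genes of the 21959 genes listed in each count table, selected on these roles with their levels in the 4 groups of the same mice already known, and all 38 were found. The mice were C57BL/6 males, 6 weeks old when MC38 cells were placed in the spleen, and MC38 is a mouse colon carcinoma line that seeds the liver from there. The 4 control mice received PBS. SB525334, an oral inhibitor of the type I TGF-β receptor kinase, was given to 4 mice at 20 mg/kg daily, and KN046, a bispecific antibody to PD-L1 and CTLA-4, to 4 mice at 10 mg/kg by repeated intraperitoneal injection. The last 4 mice received both drugs and are called the combination. All 4 groups carried the same tumor line, and the libraries were made from total RNA of whole tumor tissue.

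PPARα and PPARγ are nuclear receptors that bind DNA together with a retinoid X receptor and are switched on by fatty acids and their derivatives. In hepatocytes PPARα drives the genes that take up, bind and burn fatty acids in mitochondria, peroxisomes and the microsomal omega-oxidation pathway, and it is most active in fasting. PPARγ is best known from adipocytes and macrophages, where it promotes fatty acid uptake and storage in droplets, which are coated with perilipins and CIDE proteins.

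Hepatocyte markers differed widely between the groups. Albumin (Alb), the main product of hepatocytes, gave 179299, 171178, 165295 and 160998 counts in the control mice, 14375, 21953, 11323 and 2991 with SB525334, 107728, 175884, 197917 and 154289 with KN046 and 182, 183, 212 and 150 in the combination mice. The 15 hepatocyte markers had a median level of 8.16% of control with SB525334, 84.0% with KN046 and 0.116% in the combination mice, and none of the 15 was at 0 in any group. Their summed level was 17942 to 22141 CPM in the control mice, 695 to 2545 with SB525334, 11170 to 22994 with KN046 and 73.9 to 94.1 in the combination mice. The 4 epithelial markers, of which the keratins Krt8 and Krt18 are also made by hepatocytes, had a median of 26.4% of control with SB525334, 80.0% with KN046 and 7.24% in the combination mice. What part either marker list had in the values of the 38 genes was not tested. In bulk tissue, fewer cells of a type and less RNA per cell cannot be told apart. Of the 6 adipocyte markers, Plin1 and Lep were at 0 in every control mouse, and the defining product Adipoq was at 0 in 14 of the 16 mice. Total counts per mouse were 18368994 to 23877131. Control mice 1 and 2, and control mice 3 and 4, resembled each other more than any other 2 mice of a group did (median chi-square per gene 1.26 and 0.957, against 2.82 or more), although they differed by more than sampling noise. Values are therefore also given with each of these pairs merged into 1 sample where that changes a call. No rise with KN046 among the 38 genes kept its call on merging, and those values are given together in a later paragraph.

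Levels are given as CPM, counts brought to one library size with TMM factors, and mice 1 to 4 of a group are given in that order. A gene is said to have risen or fallen when its adjusted p was under 0.05 in edgeR's quasi-likelihood test over 13968 genes. Because the genes were selected with values of these comparisons known, the counts and p-values describe where the genes stood in the whole table and are not independent evidence. Of the 38 genes, 33 had enough counts to be tested; Cidea, Cideb, Plin1, Acot3 and Adipoq did not. With SB525334, 17 of the 33 fell, while 9.22% of all genes tested fell, and 0 rose, against 0.394% of all genes; 0 also rose at an unadjusted p under 0.05 and by DESeq2. With KN046, 9 rose against 1.6% of all genes, and 0 fell against 2.4%, with 2 lower at an unadjusted p under 0.05 and 0 by DESeq2. With the combination, 20 fell against 9.74% of all genes, and 0 rose against 1.37%, also at an unadjusted p under 0.05 and by DESeq2. The median log2 fold change of the 33 genes was -1.51 for SB525334, 0.33 for KN046 and -1.67 for the combination, and that of all genes tested was 0.00, -0.03 and 0.01. The 3 comparisons share the control mice.

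**Figure D1:**
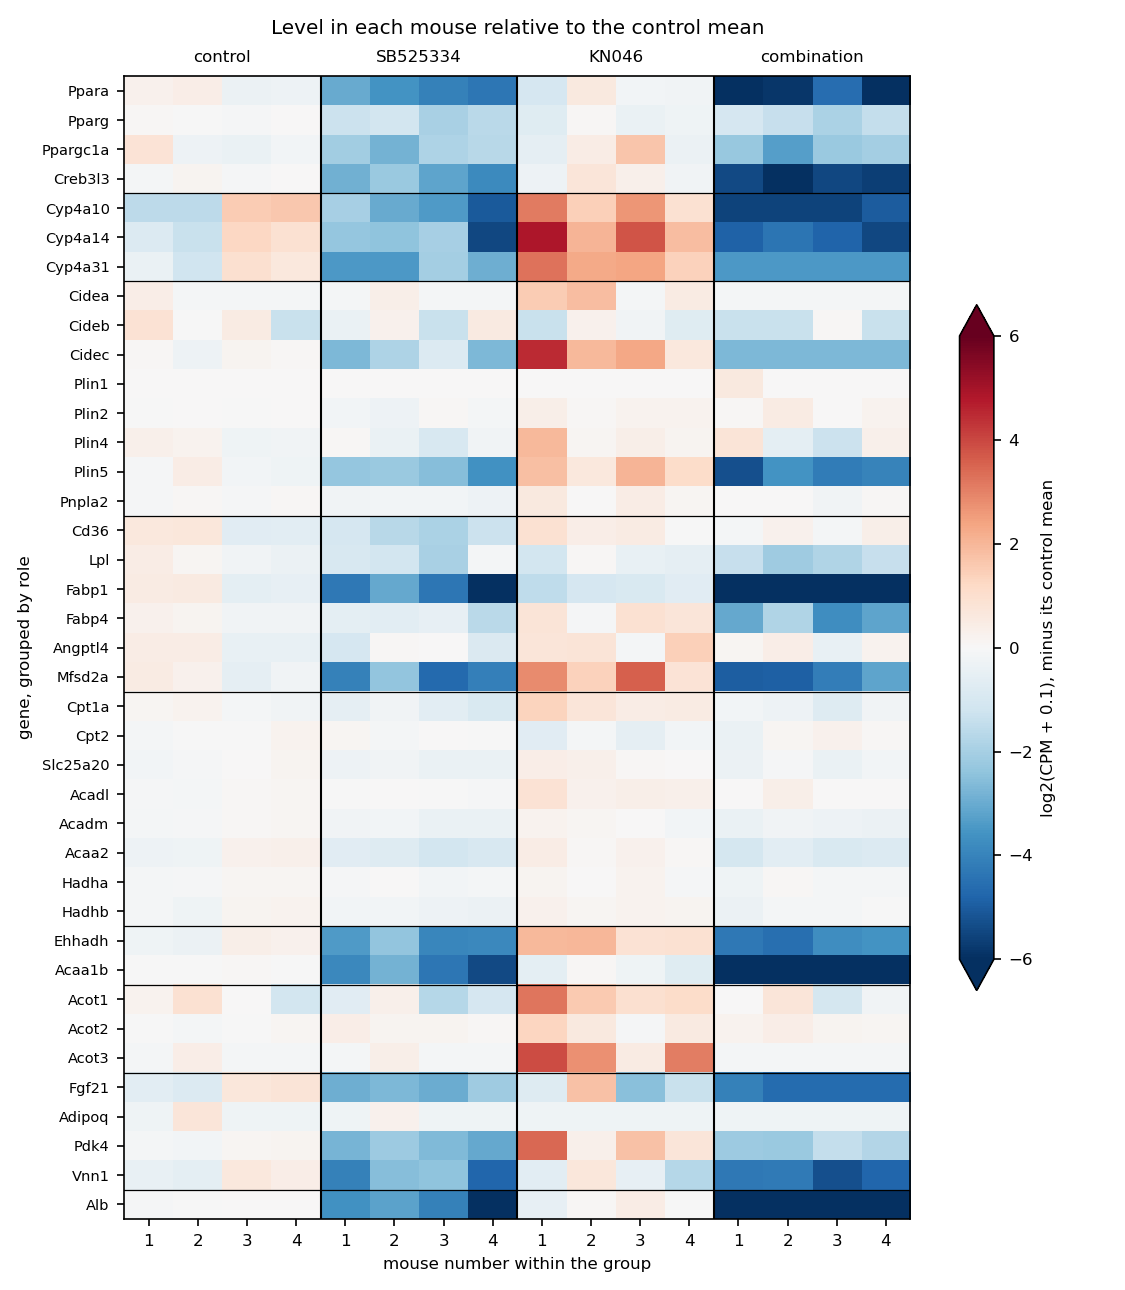
Level of the 38 genes and Alb in each of 16 mice, as log2(CPM + 0.1) minus the control mean (color; red higher, blue lower), with columns for mice and rows grouped by role. The SB525334 and combination columns are blue for the receptors, Cyp4a genes, Plin5, Fabp1, Mfsd2a, Ehhadh, Acaa1b, Pdk4 and Vnn1 and near white for Plin2, Pnpla2 and most mitochondrial genes, and the KN046 columns are red for Cyp4a14, Cyp4a31, Mfsd2a and Ehhadh.

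PPAR with its partner recognizes a direct repeat of AGGTCA spaced by 1 base, and promoters that hold such a repeat are shown for genes that fell and genes that did not. The 300 bases upstream of the start of each gene's canonical transcript (GRCm39, GENCODE), which in genes such as Lpl, Cd36 and Pparg lies inside the gene, were searched on both strands for AGGTCANAGGTCA with up to 2 mismatches in its 12 fixed letters. A match was in 753 of 21757 promoters (3.46%) and in 4 of the 38 listed genes: Fabp1 and Vnn1, which fell with SB525334 and the combination, and Plin2 and Acot2, which did not pass the test in either. The match in capitals has 1 mismatch in Fabp1 and 2 in the other genes. It lies on the strand of the gene in Acot2 and on the opposite strand in Fabp1, Vnn1 and Plin2. Each sequence runs 5′ to 3′ on the gene's strand, which is the minus strand for Plin2 and the plus strand for the others. A match to these letters is not a binding site, and sites further from the start were not searched. The windows are chr6:71176509-71176808 for Fabp1, chr10:23770286-23770585 for Vnn1, chr4:86588460-86588759 for Plin2 and chr12:84034128-84034427 for Acot2.
Fabp1: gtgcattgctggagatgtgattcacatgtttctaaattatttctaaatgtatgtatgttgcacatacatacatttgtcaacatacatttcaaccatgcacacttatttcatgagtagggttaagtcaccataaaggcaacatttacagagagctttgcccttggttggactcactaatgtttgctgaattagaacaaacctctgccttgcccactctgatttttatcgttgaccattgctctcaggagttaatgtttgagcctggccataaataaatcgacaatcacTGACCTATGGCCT
Vnn1: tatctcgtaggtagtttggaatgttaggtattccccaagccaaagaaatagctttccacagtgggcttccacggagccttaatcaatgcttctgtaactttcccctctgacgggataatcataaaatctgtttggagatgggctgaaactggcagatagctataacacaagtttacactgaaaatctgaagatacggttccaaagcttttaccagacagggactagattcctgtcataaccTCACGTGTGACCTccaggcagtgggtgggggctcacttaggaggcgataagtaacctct
Plin2: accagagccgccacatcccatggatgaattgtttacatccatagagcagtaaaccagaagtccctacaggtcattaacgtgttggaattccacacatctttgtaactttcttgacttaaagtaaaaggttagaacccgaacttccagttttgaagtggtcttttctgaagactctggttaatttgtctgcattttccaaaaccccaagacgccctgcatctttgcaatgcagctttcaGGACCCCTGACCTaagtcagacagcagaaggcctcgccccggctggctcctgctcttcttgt
Acot2: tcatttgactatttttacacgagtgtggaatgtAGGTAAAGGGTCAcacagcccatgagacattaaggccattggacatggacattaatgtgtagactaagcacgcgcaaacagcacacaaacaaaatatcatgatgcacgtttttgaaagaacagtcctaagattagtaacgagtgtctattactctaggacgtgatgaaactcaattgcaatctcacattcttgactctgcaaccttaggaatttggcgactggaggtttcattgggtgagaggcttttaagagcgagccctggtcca

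The receptors and coactivators fell together with SB525334 and with the combination, and none of the 4 changed with KN046. Ppara, the fatty acid receptor of hepatocytes, was at 10.8, 11.8, 6.84 and 7.05 CPM in the control mice, 0.994, 0.637, 0.43 and 0.345 with SB525334 and 4.32, 13.2, 7.82 and 7.58 with KN046. With the combination it was at 0, 0.0552, 0.273 and 0 CPM, or 6 counts in all 4 mice. The SB525334 mice were all below the control mice and the combination mice all below the SB525334 mice, whereas the KN046 mice overlapped the control mice. Against control, the log2 fold change of Ppara was -3.91 ± 0.47, adjusted p = 1.05e-05 (edgeR) with SB525334 and -6.76 ± 0.63, adjusted p = 1.95e-07 with the combination. Its level against SB525334 alone was lower with the combination (-2.84 ± 0.73, adjusted p = 0.0334, edgeR), but this call was lost without SB525334 mouse 1 or 2 or without combination mouse 1, 2 or 4, with adjusted p of up to 0.128.

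Creb3l3, a membrane-bound transcription factor of hepatocytes that works with PPARα in fasting, was at 19.8, 24.1, 20.4 and 21.7 CPM in the control mice, 2.85, 4.5, 2.32 and 1.42 with SB525334, 17.5, 35.9, 26.3 and 18.8 with KN046, and 0.411, 0.0552, 0.382 and 0.33 in the combination mice. Its control and KN046 mice overlapped, the SB525334 mice were lower, and the combination mice were lower still. The log2 fold change of Creb3l3 was -2.95 ± 0.32, adjusted p = 3.40e-06 (edgeR) with SB525334, -6.15 ± 0.41, adjusted p = 4.35e-09 with the combination, and -3.2 ± 0.43, adjusted p = 0.000113 between the combination and SB525334. Pparg, the receptor of storage, was lower but remained readable, at 3.93, 3.64, 3.55 and 3.81 CPM in the control mice, 1.49, 1.67, 0.903 and 1.16 with SB525334, 2.18, 3.99, 2.85 and 3.06 with KN046, and 1.8, 1.38, 0.928 and 1.32 in the combination mice. The SB525334 and combination mice of Pparg overlapped each other and lay below every control mouse, with log2 fold changes of -1.51 ± 0.27, adjusted p = 0.000643 and -1.46 ± 0.27, adjusted p = 0.0007995 (edgeR). Ppargc1a, a coactivator of mitochondrial gene expression, was near the detection limit, at 1.66, 0.71, 0.659 and 0.784 CPM in the control mice, 0.136, 0.0398, 0.172 and 0.215 with SB525334, 0.586, 1.26, 3.07 and 0.675 with KN046, and 0.103, 0, 0.109 and 0.141 in the combination mice. Control mouse 1 stood above the other control mice for Ppargc1a, and every SB525334 and combination mouse was below every control mouse. Its log2 fold change was -2.73 ± 0.65, adjusted p = 0.00836 (edgeR) with SB525334 and -3.33 ± 0.72, adjusted p = 0.00304 with the combination.

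The 3 Cyp4a genes encode microsomal fatty acid omega-hydroxylases and are classical PPARα targets of the liver; all 3 fell with SB525334 and the combination, and 2 of 3 rose with KN046. Cyp4a14 was at 2.4, 1.66, 10.1 and 8.05 CPM in the control mice, 0.768, 0.716, 0.99 and 0 with SB525334, 126, 17.6, 59.8 and 15.4 with KN046, and 0.0513, 0.11, 0.0546 and 0 in the combination mice. Every KN046 mouse of Cyp4a14 was above every control mouse, and every SB525334 and combination mouse was below them. Its log2 fold change was 3.31 ± 0.68, adjusted p = 0.0232 (edgeR) with KN046, -3.14 ± 0.8, adjusted p = 0.014 with SB525334 and -6.57 ± 1.22, adjusted p = 0.000711 with the combination. Without control mouse 3, the fall with SB525334 had an adjusted p of 0.0528. The KN046 call of Cyp4a14 was lost with the control pairs merged (adjusted p = 0.196, edgeR). It was also lost without control mouse 1, 2 or 4 and without KN046 mouse 1 or 3 (adjusted p of up to 0.0743, edgeR).

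Cyp4a10 was at 1.49, 1.51, 13.6 and 14.4 CPM in the control mice, 1.08, 0.478, 0.344 and 0.0431 with SB525334, 40.9, 12.6, 29.4 and 8.88 with KN046, and 0, 0, 0 and 0.0471 in the combination mice. The control mice split, with mice 1 and 2 far below mice 3 and 4, the same division as the closely similar library pairs, and the KN046 mice overlapped mice 3 and 4. The log2 fold change of Cyp4a10 was -3.98 ± 0.82, adjusted p = 0.00246 (edgeR) with SB525334, and with KN046 it did not pass (1.57 ± 0.66, adjusted p = 0.17). With the combination 1 count was left in 4 mice, and the scaled sum in the control mice was 567 times (95% counting interval 101 to 22430.2) the sum with the combination. Cyp4a31 was at 0.743, 0.378, 2.03 and 1.62 CPM in the control mice, 0, 0, 0.172 and 0.0431 with SB525334, 10.4, 5.2, 5.64 and 2.75 with KN046, and 0, 0, 0 and 0 in the combination mice. The KN046 mice were above and the SB525334 mice below all control mice, with log2 fold changes of 2.34 ± 0.57, adjusted p = 0.0407 and -4.32 ± 0.83, adjusted p = 0.00222 (edgeR). The KN046 call of this gene was lost with the control pairs merged (adjusted p = 0.251, edgeR). It was also lost without any 1 control mouse and without KN046 mouse 1 or 3 (adjusted p of up to 0.137, edgeR). Cyp4a31 had 0 counts with the combination, at least 29.8-fold lower than in the control mice (floor of 3 counts over the group). Of the 100-base windows of their transcripts, 13.6% in Cyp4a10 and 7.26% in Cyp4a31 are shared with other genes, chiefly Cyp4a32, so these counts are uncertain, while Cyp4a14 shares none.

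Among the droplet genes, Plin5 fell with SB525334 and the combination and rose with KN046, whereas Plin2, Plin4 and Pnpla2 passed in no comparison with control. Plin2, the perilipin that coats droplets in most cells, had a mean level per length of 36.2 CPM per kb of exon in the control mice, which only Fabp1 exceeded among the 38 genes, at 117. Plin2 was at 274, 282, 270.1 and 286 CPM in the control mice, 245, 227, 292 and 255 with SB525334, 351, 289.9, 321 and 319.6 with KN046, and 295, 392, 283 and 319.7 in the combination mice, and it changed in none of the 3 comparisons with control, although all KN046 mice were above all control mice. Plin5, the perilipin of oxidizing tissues that links droplets to mitochondria, was at 3.63, 5.2, 3.4 and 3.13 CPM in the control mice, 0.678, 0.716, 0.559 and 0.215 with SB525334, 13.4, 5.98, 15.9 and 8.21 with KN046, and 0, 0.221, 0.109 and 0.141 in the combination mice. Its 4 groups separated into KN046 highest, then control, then SB525334, with the combination overlapping SB525334. The log2 fold change of Plin5 was 1.5 ± 0.37, adjusted p = 0.0356 (edgeR) with KN046, -2.81 ± 0.42, adjusted p = 0.000102 with SB525334 and -4.97 ± 0.53, adjusted p = 1.15e-06 with the combination.

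Cidec, which fuses and enlarges lipid droplets, was at 0.568, 0.426, 0.608 and 0.575 CPM in the control mice, 0, 0.0796, 0.258 and 0 with SB525334, 14.2, 2.38, 3.07 and 0.883 with KN046, and 0, 0, 0 and 0 in the combination mice. KN046 mouse 1 stood far above the other 3 KN046 mice, all of which were still above every control mouse. With KN046 the log2 fold change of Cidec was 3.23 ± 0.78, adjusted p = 0.04002 (edgeR), and without KN046 mouse 1 it was 1.94 and did not pass. Cidec did not pass with SB525334 (-2.59 ± 1.04, adjusted p = 0.169, edgeR), and with 0 counts in the combination mice it was at least 14.0-fold lower there than in the control mice. That fall was lost with the control pairs merged (adjusted p = 0.0618, edgeR) and without combination mouse 2, 3 or 4 (adjusted p of up to 0.0556). Cidec is also on the adipocyte marker list, of whose other 5 markers 4 (Plin1, Lep, Adipoq and Cfd) were at 0 in all KN046 mice.

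Plin4, a perilipin of nascent droplets, was at 23.3, 21.8, 16 and 16.4 CPM in the control mice, 19.8, 14.3, 9.68 and 16.5 with SB525334, 74.1, 20.4, 24.4 and 21.6 with KN046, and 33, 12.5, 7.64 and 23.5 in the combination mice. KN046 mouse 1 was high for Plin4 too, the groups overlapped, and no comparison with control passed. Pnpla2, the lipase that starts triglyceride breakdown, was at 50.9 to 57.1 CPM in the control mice, 43.6 to 48.4 with SB525334, 55.3 to 80.8 with KN046 and 46.2 to 57.7 in the combination mice, with no call against control. Cidea, a CIDE protein of brown fat and of fatty liver, had 1, 0, 0 and 0 counts in the control mice, 0, 1, 0 and 0 with SB525334, 4, 6, 0 and 1 with KN046 and 0 in all 4 combination mice. Cideb, which loads lipid onto lipoproteins in hepatocytes, had 8, 3, 5 and 0 counts, 2, 5, 0 and 6, 0, 4, 2 and 1 and 0, 0, 3 and 0 in the same order of groups, and it overlaps Nop9 on the opposite strand. Plin1, the perilipin of adipocytes, had 1 count in 1 combination mouse and 0 in the other 15 mice.

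Among genes of uptake and binding, Fabp1 and Mfsd2a fell with both SB525334 and the combination, and Mfsd2a rose with KN046. Cd36 fell with SB525334, Lpl and Fabp4 fell with the combination, and Angptl4 passed in no comparison with control. Fabp1, the abundant fatty acid binding protein of hepatocytes, whose promoter is printed above, was at 104, 108, 49.4 and 53 CPM in the control mice, 3.71, 8.8, 3.61 and 1.08 with SB525334, 25.9, 36.7, 38.7 and 45.9 with KN046, and 0, 0, 0.0546 and 0.0471 in the combination mice. Control mice 1 and 2 were well above control mice 3 and 4, all KN046 mice were below all control mice, and the combination mice were at or near 0. Its log2 fold change was -4.19 ± 0.43, adjusted p = 2.39e-06 (edgeR) with SB525334 and -1.1 ± 0.38, adjusted p = 0.0962 with KN046, which did not pass. The combination left 2 counts in 4 mice, and the scaled control sum was 3098 times (95% counting interval 857 to 25589) that sum. Mfsd2a, a carrier of lysophosphatidylcholine that PPARα induces in fasted liver, was at 6.51, 5.44, 3.09 and 3.87 CPM in the control mice, 0.181, 0.796, 0.086 and 0.172 with SB525334, 33.1, 12, 55.1 and 8.1 with KN046, and 0.0513, 0.0552, 0.164 and 0.424 in the combination mice. All KN046 mice were above all control mice and all other treated mice were below them, with log2 fold changes of 2.51 ± 0.54, adjusted p = 0.0239 with KN046, -3.88 ± 0.68, adjusted p = 0.000518 with SB525334 and -4.67 ± 0.76, adjusted p = 0.000191 with the combination (edgeR).

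Cd36, a fatty acid translocase of endothelium, macrophages and other cells, was at 26.5, 26.7, 10.5 and 10.8 CPM in the control mice, 8.27, 5.21, 4.39 and 6.85 with SB525334, 31.7, 21.9, 24 and 16.3 with KN046, and 15.4, 20.5, 15.5 and 21.6 in the combination mice. SB525334 mice lay below all control mice, while the combination mice lay between the control pairs and above all SB525334 mice. For Cd36 the log2 fold change was -1.59 ± 0.31, adjusted p = 0.0015 (edgeR) with SB525334 and -0.03 ± 0.3, adjusted p = 0.959 with the combination, and between the combination and SB525334 it was 1.56 ± 0.31, adjusted p = 0.0047. Fabp4, a fatty acid binding protein of adipocytes, macrophages and capillary endothelium, was at 26.7, 24.6, 19 and 19.2 CPM in the control mice, 14.8, 14.1, 15.6 and 7.24 with SB525334, 37.4, 20.9, 41.2 and 37.1 with KN046, and 2.57, 6.18, 1.58 and 2.4 in the combination mice. It was below all control mice in both SB525334 and combination mice, and all combination mice were below all SB525334 mice. The difference of Fabp4 did not pass with SB525334 (-0.79 ± 0.31, adjusted p = 0.155, edgeR) and passed with the combination (-2.82 ± 0.35, adjusted p = 7.45e-06). Between the combination and SB525334, Fabp4 differed by -2.03 ± 0.34, adjusted p = 0.00116 (edgeR). The 6 endothelial markers had a median of 55.0% of control with SB525334, 116% with KN046 and 69.9% in the combination mice, and the 6 macrophage markers had 110%, 81.5% and 104%; their part in the Cd36 and Fabp4 values was not tested.

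Lpl, the lipase that frees fatty acids from lipoproteins, was at 50.1, 40.1, 31.3 and 29.2 CPM in the control mice, 19, 16.8, 9.38 and 34.1 with SB525334, 17.4, 38.3, 27 and 25.7 with KN046, and 14.1, 8.39, 10.5 and 14.2 in the combination mice. Only the combination separated from the control mice, with a log2 fold change of -1.67 ± 0.32, adjusted p = 0.00102 (edgeR), and Lpl did not pass with SB525334 (-0.93 ± 0.31, adjusted p = 0.078) or KN046 (-0.47 ± 0.31, adjusted p = 0.371). Angptl4, a secreted inhibitor of Lpl and a PPAR target in many cell types, was at 29.6 to 54.5 CPM in the control mice, 19.8 to 41.5 with SB525334, 36.7 to 108 with KN046 and 29.2 to 52.5 in the combination mice. Its groups overlapped and no comparison passed.

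**Figure D2:**
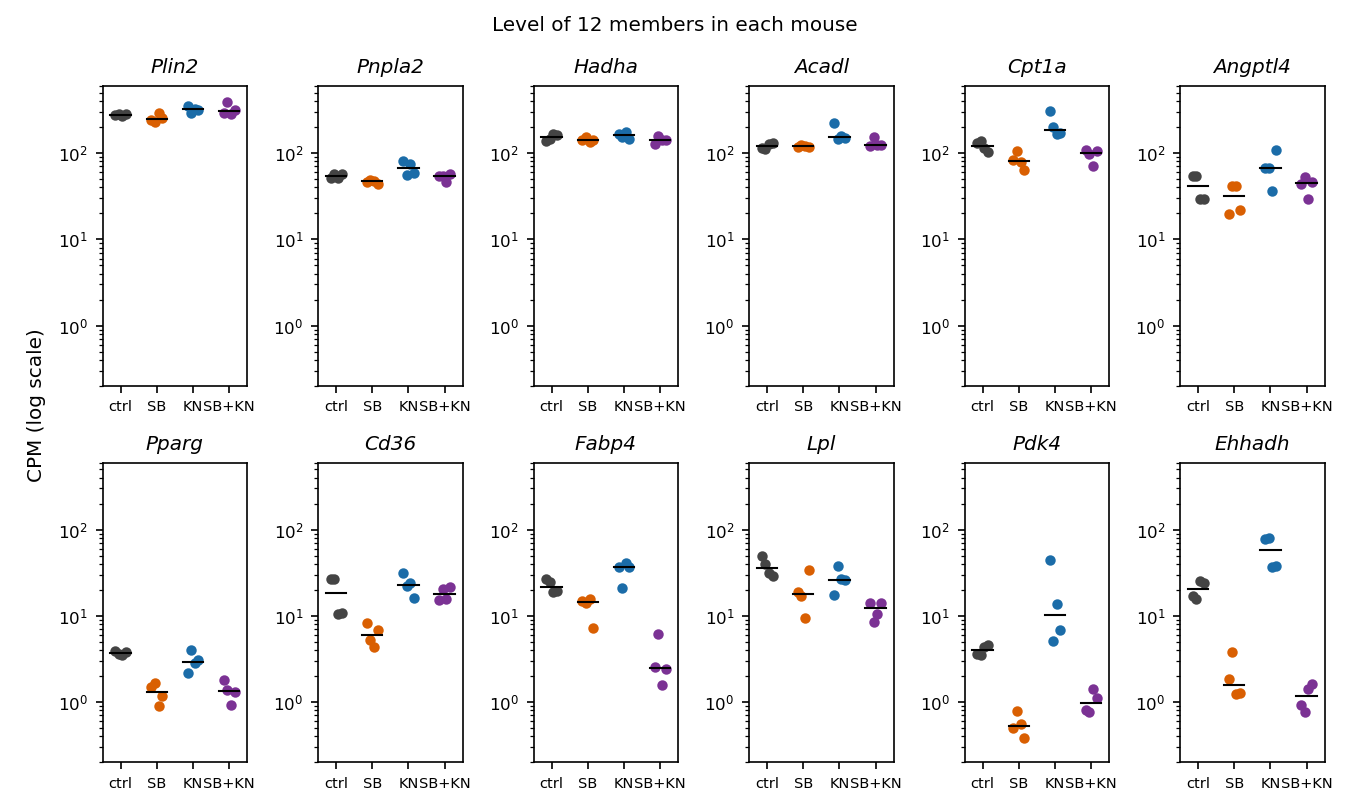
CPM on a log scale of 12 genes in each mouse (points) of the control (ctrl), SB525334 (SB), KN046 (KN) and combination (SB+KN) groups, with the group median as a line. Plin2, Pnpla2 and Hadha passed in no comparison with control, Acadl rose by 0.47 (log2) with KN046, Fabp4 was lowest with the combination, Cd36 was lowest with SB525334, and Ehhadh and Pdk4 fell with both SB525334 and the combination.

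Mitochondrial import and beta-oxidation genes had a median log2 fold change near 0, with larger changes in some of them. Of the 8 genes, 1 fell with SB525334, 2 rose with KN046 and 2 fell with the combination, where 9.22%, 1.6% and 9.74% of all genes did, shares that so few genes cannot be read against. The median log2 fold change of the 8 was -0.27, 0.18 and -0.19. Acaa2, the last thiolase of the mitochondrial spiral, was at 67.9, 70.4, 99.9 and 102 CPM in the control mice, 51.8, 49.5, 39 and 43.1 with SB525334, 113, 87.2, 99.2 and 87.8 with KN046, and 39.9, 53.3, 44.6 and 47 in the combination mice. Both SB525334 and combination mice were below all control mice, by -0.89 ± 0.15, adjusted p = 0.00028 and -0.88 ± 0.15, adjusted p = 0.000249 (edgeR), and control mice 1 and 2 were below 3 and 4. Acadm, the medium-chain dehydrogenase, was at 75.2, 76.6, 84.5 and 88 CPM in the control mice, 70.4, 71.8, 61.2 and 60.5 with SB525334, 94.4, 87.2, 83 and 73.1 with KN046, and 62.3, 69.95, 66.1 and 63.2 in the combination mice. Its fall with the combination (-0.31 ± 0.1, adjusted p = 0.0443, edgeR) was at the threshold and was lost under 4 of 8 alternatives, among them merged control pairs, DESeq2 size factors and no filter on low counts, and in 7 of 8 fits without 1 mouse (all but control mouse 1), with adjusted p of up to 0.193.

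Cpt1a, which admits long-chain fatty acids to mitochondria in liver and many other cells, was at 132, 139.6, 113 and 103 CPM in the control mice, 82.8, 106, 78.7 and 63.7 with SB525334, 304, 201, 166 and 170.1 with KN046, and 109, 96.7, 71.1 and 105 in the combination mice. All KN046 mice were above all control mice (0.78 ± 0.19, adjusted p = 0.0364, edgeR), and the SB525334 and combination mice overlapped the control mice. Acadl, the long-chain dehydrogenase, was at 115, 112, 128 and 132 CPM in the control mice, 118, 125, 121 and 116 with SB525334, 222, 145, 157 and 152 with KN046, and 122, 154, 123 and 123 in the combination mice. Its KN046 mice were above all control mice by a small step (0.47 ± 0.12, adjusted p = 0.044, edgeR), with mouse 1 far above the other 3. Cpt2, Slc25a20, Hadha and Hadhb, which complete the carnitine shuttle and the trifunctional protein, had log2 fold changes from -0.34 (Slc25a20) to -0.01 (Cpt2) with SB525334, from -0.37 (Cpt2) to 0.19 (Slc25a20) with KN046 and from -0.24 (Slc25a20) to 0.02 (Cpt2) with the combination, and none passed. Slc25a20 was at 25.4 to 31.8 CPM in the control mice and 21.4 to 24.0 CPM with SB525334, without overlap, while Cpt2, Hadha and Hadhb overlapped between these groups. Hadha and Hadhb overlap head to head in the genome, so reads in the shared stretch cannot be assigned without strand.

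The peroxisomal genes parted company with KN046. Ehhadh, the bifunctional enzyme of peroxisomal beta-oxidation, was at 17, 15.8, 25.6 and 24 CPM in the control mice, 1.85, 3.86, 1.25 and 1.29 with SB525334, 77.3, 80.6, 36.8 and 37.8 with KN046, and 0.924, 0.772, 1.42 and 1.6 in the combination mice. Every KN046 mouse was above every control mouse, and every SB525334 and combination mouse was below them. The log2 fold change of Ehhadh was 1.5 ± 0.32, adjusted p = 0.0239 (edgeR) with KN046, -3.31 ± 0.36, adjusted p = 4.31e-06 with SB525334 and -4.11 ± 0.39, adjusted p = 3.02e-07 with the combination. Acaa1b, a liver thiolase of the same pathway, was at 12.9, 13.1, 13.8 and 13 CPM in the control mice, 0.813, 1.75, 0.559 and 0.215 with SB525334, 8.63, 13.9, 11 and 8.05 with KN046, and 0, 0, 0 and 0.0471 in the combination mice. It overlapped between KN046 and control mice (-0.34 ± 0.34, adjusted p = 0.568, edgeR) and fell with SB525334 (-3.96 ± 0.4, adjusted p = 1.95e-06). With the combination it had 1 count in 4 mice, and the scaled control sum was 1018 times (95% counting interval 182 to 40264) that sum. Acaa1b shares 6.31% of its 100-base windows with Acaa1a.

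The thioesterases, which release free fatty acids from acyl-CoA, did not pass in any comparison with control. Acot3, too low to test, had 29, 13, 1 and 16 counts with KN046 and at most 1 count in each of the other 12 mice, so 3 of 4 KN046 mice were well above all others and 1 was not. Acot1 was at 0.313 to 1.56 CPM in the control mice and 1.62 to 8.1 with KN046, where no mouse overlapped the control mice but the test did not pass (1.95 ± 0.6, adjusted p = 0.0719, edgeR). Acot2, the mitochondrial form, stayed between 9.04 and 14.5 CPM in 15 of 16 mice and was at 24 CPM in KN046 mouse 1. Acot1 and Acot2 share 14.4% and 17.5% of their 100-base windows with other genes, mainly each other, so their separate values are uncertain.

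Pdk4, the kinase that shuts glucose carbon out of mitochondria when fat is burned, was at 3.63, 3.55, 4.41 and 4.55 CPM in the control mice, 0.497, 0.796, 0.559 and 0.388 with SB525334, 44.6, 5.05, 13.6 and 6.8 with KN046, and 0.821, 0.772, 1.42 and 1.13 in the combination mice. All KN046 mice were above the control mice, with mouse 1 highest, and the SB525334 and combination mice were below. For Pdk4 the log2 fold change was 2.12 ± 0.5, adjusted p = 0.0316 (edgeR) with KN046, or 1.07 without KN046 mouse 1, -2.83 ± 0.57, adjusted p = 0.00205 with SB525334 and -1.95 ± 0.54, adjusted p = 0.0237 with the combination. The last call was lost with the control pairs merged (adjusted p = 0.0863, edgeR) and without combination mouse 1, 2 or 4 (adjusted p of up to 0.0806). Vnn1, a pantetheinase strongly induced by PPARα in liver, was at 2.75, 2.51, 6.03 and 5.07 CPM in the control mice, 0.136, 0.557, 0.645 and 0.0431 with SB525334, 2.4, 6.17, 2.68 and 1.09 with KN046, and 0.103, 0.11, 0 and 0.0471 in the combination mice. It was lower in all SB525334 and combination mice, by -3.53 ± 0.63, adjusted p = 0.000615 and -5.85 ± 0.8, adjusted p = 2.67e-05 (edgeR), and overlapped the control mice with KN046.

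Fgf21, the fasting hormone that PPARα induces in liver, was at 1.49, 1.32, 3.85 and 4.13 CPM in the control mice, 0.226, 0.279, 0.215 and 0.474 with SB525334, 1.33, 8.21, 0.335 and 0.883 with KN046, and 0.0513, 0, 0 and 0 in the combination mice. Its level fell with SB525334 (-3.15 ± 0.79, adjusted p = 0.0131, edgeR) and was down to 1 count with the combination, where the scaled control sum was 202 times (95% counting interval 35.9 to 8016) that sum. With KN046 the mice scattered on both sides of the control mice (0.01 ± 0.67, adjusted p = 0.994, edgeR): mouse 2 was far above them, and without it the log2 fold change was -1.64 (adjusted p = 0.0473). Adipoq, the adipocyte hormone adiponectin, had 2 counts in control mouse 2, 1 count in SB525334 mouse 2 and 0 in the other mice.

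**Figure D3:**
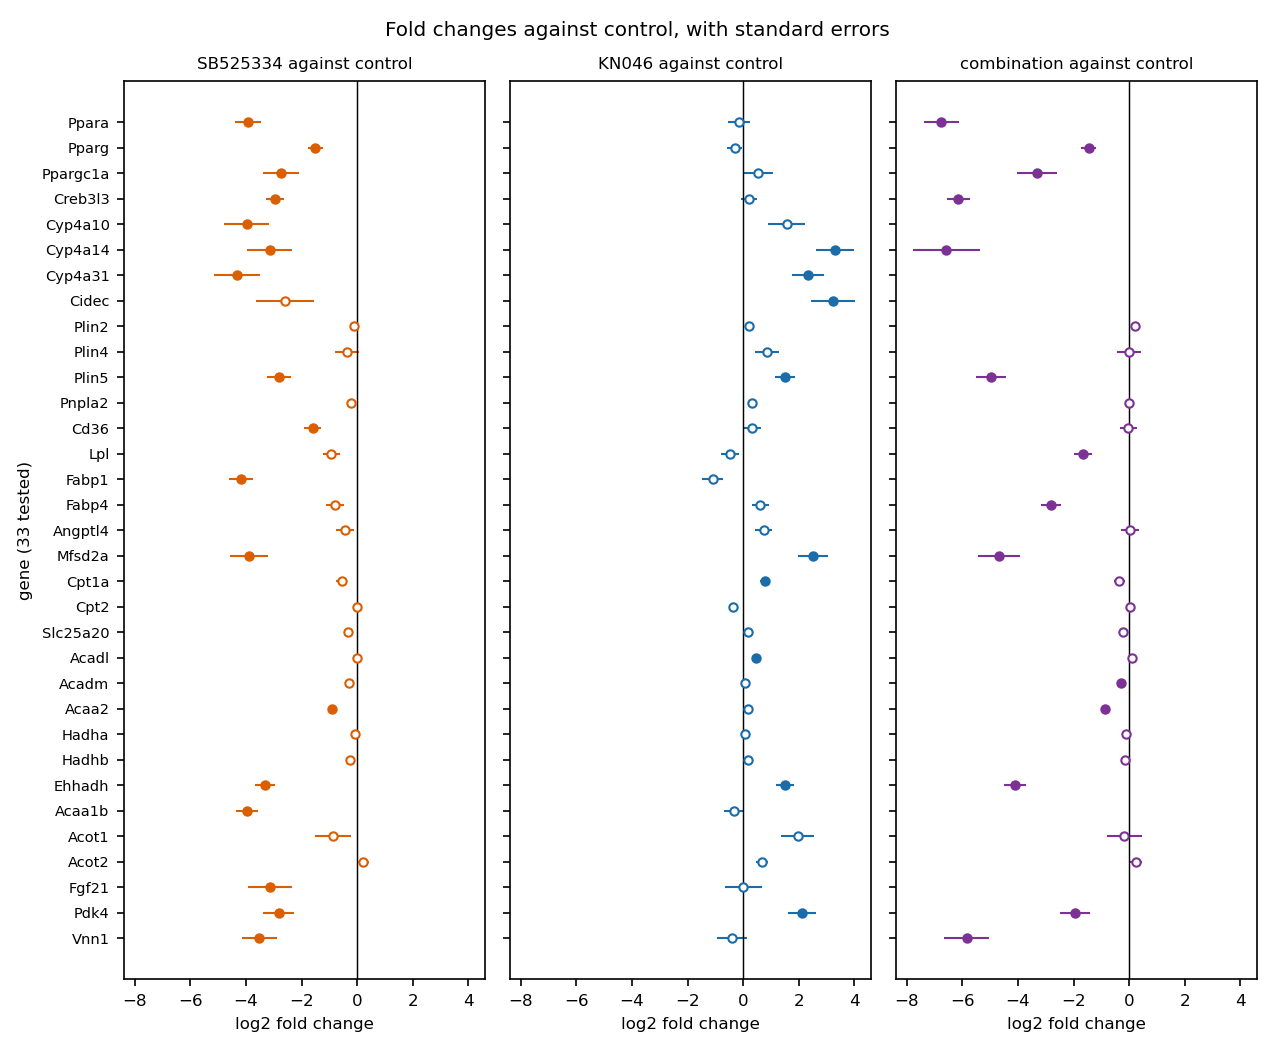
Log2 fold change against control with its standard error for the 33 genes tested, in 1 panel for each treatment on a shared axis; filled points passed an adjusted p of 0.05 (edgeR) and open points did not. Genes with 3 or fewer counts in the combination (Cyp4a10, Cyp4a31, Cidec, Fabp1, Acaa1b and Fgf21) are left out of its panel because their fitted value is not a bound. Filled points lie below 0 for SB525334 and the combination and above 0 for KN046.

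Each gene was also set against Alb in the same mouse. On that scale the median of all 13967 genes moved by 4.66 (log2) with SB525334, 0.02 with KN046 and 9.80 in the combination mice, since Alb itself fell, and 95.7%, 0.0358% and 97.4% of genes were higher while 0.158%, 0.229% and 0.0143% were lower. Of the 33 listed genes, 20 were higher relative to Alb with SB525334, 3 with KN046 and 27 in the combination mice, and 0 were lower in each (also 0 at an unadjusted p under 0.05, edgeR). With SB525334 and the combination nearly all genes passed, so the adjustment changed little, and 20 and 27 were also the counts at an unadjusted p under 0.05. With KN046 that count was 10, and the adjusted p-values of KN046 on this scale cannot be compared with those of the other treatments. Among the 10 tested genes counted as liver-enriched, 1 was higher relative to Alb with SB525334, and their median was 0.33 against 4.66 for all genes. Ppara and Creb3l3 of the receptors and coactivators were counted among the 10, and Mfsd2a and Plin5 were not. The 10 values lay between -0.30 (Fabp1) and 1.46 (Fgf21), whereas all 8 mitochondrial genes were higher relative to Alb, with a median of 4.34. Without SB525334 mouse 4, which had the fewest Alb reads of its group, the median of all genes was 3.68 and that of the mitochondrial genes 3.44. That of the liver-enriched genes, of which 11 were tested in that fit, was 0.16, with 0 higher. Without SB525334 mouse 1, 2 or 3 the liver-enriched median was 0.68, 0.42 or 0.23, with 2 of 11 higher each time. With the combination, 5 of the 10 liver-enriched genes were higher relative to Alb, by 2.82 (Ppara), 3.03 (Cyp4a14), 3.60 (Creb3l3), 3.81 (Vnn1) and 5.70 (Ehhadh) on the log2 scale. Ppara, Cyp4a14 and Vnn1 had only 6, 4 and 5 counts in all 4 combination mice, so their sizes are uncertain. Alb itself had 150 to 212 counts per combination mouse. The other 5 (Cyp4a10, Cyp4a31, Fabp1, Acaa1b and Fgf21) had 3 counts or fewer in that group and did not pass.

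Acaa1b had a ratio within a narrow range, at 1.65, 1.62, 1.65 and 1.54 reads per 1000 Alb reads in the control mice, 1.25, 2.004, 1.15 and 1.67 with SB525334, and 1.5, 1.63, 0.995 and 1.005 with KN046. The 3 groups of Acaa1b overlapped, and the log2 difference of the ratio with SB525334 was -0.09 ± 0.66, adjusted p = 0.891 (edgeR). In these fits the spread of a gene is drawn in part from that of all genes, so the ± and p are not those of its own ratios alone. They can be too wide for a gene with a steady ratio such as Acaa1b, and a difference that did not pass is not shown to be absent. Fabp1 had 13.3, 13.4, 5.9 and 6.3 reads per 1000 Alb reads in the control mice, 5.7, 10.1, 7.42 and 8.36 with SB525334, and 4.51, 4.3, 3.5 and 5.72 with KN046. The SB525334 mice overlapped the control mice (-0.3 ± 0.6, adjusted p = 0.627, edgeR), and all KN046 mice were below all control mice without passing the test (-1.11 ± 0.6, adjusted p = 1). For Ppara the ratio was 1.37, 1.45, 0.817 and 0.839 in the control mice, 1.53, 0.729, 0.883 and 2.67 with SB525334, and 0.752, 1.55, 0.707 and 0.946 with KN046, overlapping in all groups (0.25 ± 0.68, adjusted p = 0.715 with SB525334, edgeR). Creb3l3 had 2.53, 2.97, 2.44 and 2.58 reads per 1000 Alb reads in the control mice, 4.38, 5.15, 4.77 and 11 with SB525334, and 3.05, 4.2, 2.38 and 2.34 with KN046 and was the 1 liver-enriched gene that passed with SB525334 (1.23 ± 0.62, adjusted p = 0.049, edgeR). That call was lost without any 1 control mouse, without SB525334 mouse 4, with the control pairs merged and with the other hepatocyte markers as the reference (adjusted p of up to 0.158, edgeR). Because nearly all genes passed with SB525334 on this scale, the adjusted p of Creb3l3 was close to an unadjusted one. Every SB525334 mouse was above every control mouse for that ratio, and SB525334 mouse 4, which had the fewest Alb reads, was the highest.

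With KN046, Cyp4a14, Cidec and Pdk4 were higher relative to Alb. Cyp4a14 had 0.307, 0.204, 1.2 and 0.957 reads per 1000 Alb reads in the control mice, 1.18, 0.82, 2.03 and 0 with SB525334, and 22, 2.06, 5.41 and 1.92 with KN046, and its log2 difference with KN046 was 3.55 ± 0.68, adjusted p = 0.000157 (edgeR). Cidec had 0.0725, 0.0526, 0.0726 and 0.0683 reads per 1000 Alb reads in the control mice, and 2.48, 0.279, 0.278 and 0.11 with KN046 (3.52 ± 0.73, adjusted p = 0.00125, edgeR), and Pdk4 had 0.463, 0.438, 0.526 and 0.54 in the control mice, and 7.78, 0.591, 1.23 and 0.849 with KN046 (2.4 ± 0.62, adjusted p = 0.0431). All KN046 mice were above all control mice for these 3 genes and for Cyp4a31, Plin5, Mfsd2a and Ehhadh, which did not pass. The share of all genes that separated in this way is not given here. For Mfsd2a the ratio was 0.831, 0.672, 0.369 and 0.46 in the control mice, and 5.77, 1.4, 4.98 and 1.01 with KN046 (2.49 ± 0.65, adjusted p = 0.0508, edgeR). Without KN046 mouse 1, which had the fewest Alb reads of its group, 0 genes were higher relative to Alb, and with the control pairs merged 0 were. Pdk4 also lost the call without any 1 control mouse (adjusted p of up to 0.28) and without KN046 mouse 3 (adjusted p = 0.0538, edgeR). With mouse number as a replicate block, Pdk4 (adjusted p = 0.206) and Cidec (adjusted p = 0.0836) did not pass, and Mfsd2a did (adjusted p = 0.0319, edgeR). With the other 14 hepatocyte markers as the reference in place of Alb, 6 were higher.

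**Figure D4:**
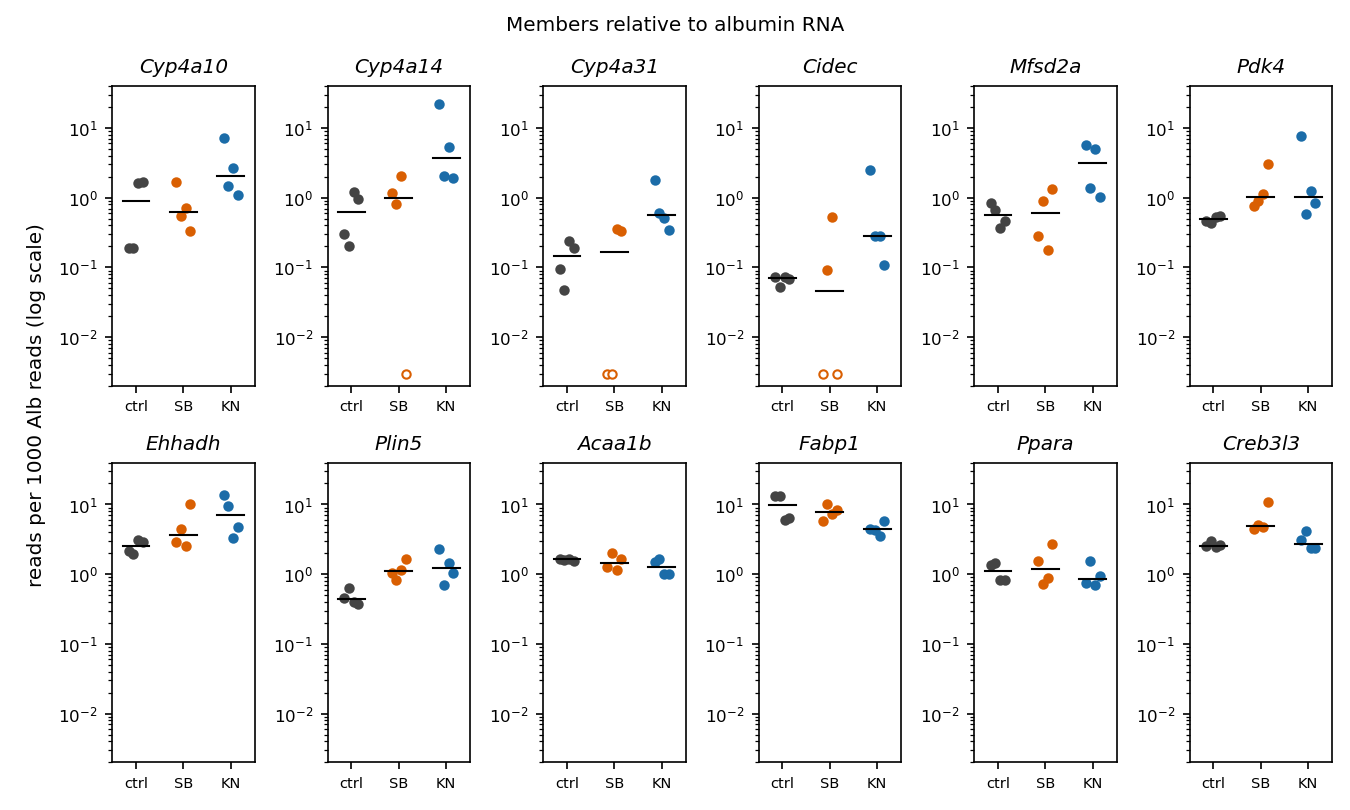
Reads per 1000 Alb reads, on a log scale, for 12 genes in each control (ctrl), SB525334 (SB) and KN046 (KN) mouse, with open points for mice with 0 reads drawn at 0.003 and the group median as a line. Acaa1b, Fabp1 and Ppara stayed near the control ratio with SB525334, and Cyp4a14, Cidec, Mfsd2a and Ehhadh were above it in every KN046 mouse.

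The KN046 calls depended on single mice and on how the control pairs were counted. The 9 genes that rose were Cyp4a14, Cidec, Mfsd2a, Cyp4a31, Pdk4, Ehhadh, Plin5, Cpt1a and Acadl, with log2 fold changes from 3.31 down to 0.47 and adjusted p of 0.0232 to 0.044 (edgeR). Each was higher in 4 of 4 KN046 mice than in any control mouse, but the share of all genes that separated so is not given here. DESeq2 counted 12 genes. With the control pairs merged 0 passed (adjusted p from 0.196 for Cyp4a14 to 0.276 for Cidec, edgeR). With the 8 mice of the comparison fitted alone 1 passed, and with library size in place of TMM 5 passed. Leaving out 1 mouse gave 0 (control mouse 2, control mouse 4 or KN046 mouse 1), 1 (control mouse 1 or 3), 3 (KN046 mouse 3) or up to 12 genes. Their log2 fold changes stayed above 0 in every one of these fits. Without KN046 mouse 1, they were 2.49 for Cyp4a14, 1.94 for Cidec, 2.39 for Mfsd2a, 1.93 for Cyp4a31, 1.07 for Pdk4, 1.33 for Ehhadh, 1.38 for Plin5, 0.55 for Cpt1a and 0.32 for Acadl.

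In CPM, the genes that were higher with KN046 alone were not higher with the combination. Alb was at 5740 to 11057 CPM with KN046 and 7.07 to 11.6 CPM with the combination, and its part in the falls given here was not tested. Against KN046 alone, 26 of the 33 genes were lower with the combination, where 14.5% of all genes were lower, and 0 were higher against 9.89% (1 at an unadjusted p under 0.05 with edgeR, 0 by DESeq2). Cpt1a was lower by -1.14 ± 0.19, adjusted p = 0.000337 and Pdk4 by -4.07 ± 0.56, adjusted p = 2.96e-05 (edgeR), and Ehhadh, Cyp4a14 and Plin5 were lower as well, at adjusted p of 1.21e-08, 3.32e-06 and 4.51e-08. Of the 26, Pnpla2, Acadl, Hadhb, Slc25a20 and Acot1 lost the call when single mice were left out, and their log2 fold changes were -0.33 ± 0.12, -0.37 ± 0.12, -0.32 ± 0.11, -0.43 ± 0.11 and -2.14 ± 0.61. Pnpla2 did so without KN046 mouse 1 or 3 or any 1 combination mouse, Acadl without KN046 mouse 1 or combination mouse 1, 3 or 4, Hadhb without KN046 mouse 1, 3 or 4 or combination mouse 1, 2 or 3, Slc25a20 without combination mouse 3, and Acot1 without KN046 mouse 1 or combination mouse 3 or 4, with adjusted p of up to 0.172. Against SB525334 alone, 5 were lower (Ppara, Creb3l3, Fabp1, Fabp4 and Acaa1b), where 3.03% of all genes were lower, and 1 was higher (Cd36), where 0.544% were.

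The interaction, whether the SB525334 effect differed between mice with and without KN046, was lower for 7 of the 33 genes, against 2.55% of all genes, and higher for 0, against 1.73% (1 at an unadjusted p under 0.05 with edgeR, 0 by DESeq2). The 7 were Creb3l3 (-3.39 ± 0.52, adjusted p = 0.000767, edgeR), Plin5 (-3.66 ± 0.69, adjusted p = 0.00471), Fabp4 (-2.64 ± 0.46, adjusted p = 0.00242), Ehhadh (-2.3 ± 0.52, adjusted p = 0.016), Cyp4a14 (-6.74 ± 1.6, adjusted p = 0.0212), Fabp1 (adjusted p = 0.00471) and Acaa1b (adjusted p = 0.0043). For Fabp1 and Acaa1b the combination held 3 counts or fewer, and their fitted size is no bound. Cyp4a14 had 4 counts and Plin5 had 9 in the combination, so their sizes are uncertain too. Alb had an interaction of -5.84 ± 0.55, adjusted p = 6.01e-06 (edgeR), which is the same direction. Cyp4a14 lost the call with the control pairs merged and without SB525334 mouse 2 or 3 or combination mouse 4 (adjusted p of up to 0.0618), and Ehhadh with the control pairs merged (adjusted p = 0.0608).

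A wider list of 86 pathway genes, of which 85 were found and 77 tested, was read in the same way. With SB525334, 28 of the 77 fell, against 9.22% of all genes tested, and 0 rose (3 at an unadjusted p under 0.05, edgeR), against 0.394%. With KN046, 0 fell (10 at an unadjusted p under 0.05, edgeR), against 2.4% of all genes, and 1 rose, against 1.6%. With the combination 29 fell, against 9.74%, and 1 rose, against 1.37%, so that the single rises were no more frequent than among all genes. By role, with SB525334, 7 of 12 peroxisomal, 4 of 6 omega-oxidation and thioesterase, 4 of 12 receptor and coregulator, 4 of 11 uptake and activation, 3 of 11 droplet and triglyceride, 3 of 8 further target, 2 of 5 ketone body and 1 of 12 mitochondrial genes fell. The largest falls with SB525334 were in Rxrg, a retinoid X receptor (0.525 to 1.15 CPM in the control mice and 0 to 0.0452 with SB525334, adjusted p = 0.000211), Fabp2, a fatty acid binding protein (log2 fold change -4.44 ± 0.71, adjusted p = 0.000199), and Acot4, a peroxisomal thioesterase (-4.37 ± 0.62, adjusted p = 5.60e-05; edgeR).

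With the combination the largest falls of that list were in Slc27a2 and Slc27a5, acyl-CoA synthetases of hepatocytes, and Cyp4f14, an omega-hydroxylase. Slc27a2 went from 66.3 to 90.5 CPM in the control mice to 0.0513 to 0.164, Slc27a5 from 50.4 to 64.6 CPM to 0 to 0.386, and Cyp4f14 from 22.4 to 23.7 CPM to 0 to 0.0942. The gene that rose with the combination was Txnip, a regulator of glucose uptake (log2 fold change 1.01 ± 0.30, adjusted p = 0.0357, edgeR), at 62.5 to 95.2 CPM in the control mice and 98.1 to 244 with the combination. The gene that rose with KN046 was Eci2, an enoyl-CoA isomerase of peroxisomes and mitochondria (0.51 ± 0.13, adjusted p = 0.0378, edgeR), at 26.2 to 34.6 CPM in the control mice and 37.9 to 50.5 with KN046. The groups did not overlap for either gene.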

How the data were processed

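Tumor RNA of 16 mice was sequenced as mRNA libraries. The authors used Cutadapt 2.7 for trimming, HISAT2 2.2.1 for alignment to GRCm39 and HTSeq 2.0.4 for counting. Strand and multiple-alignment settings are not given in the sources used here, which leaves overlapping genes and paralogs uncertain. The deposited raw counts, for 21959 genes, were used; the deposited normalized values were not used. Gene names came from GENCODE M39 (21770 identifiers matched). Counts were scaled by TMM and tested in R 4.3.3 with edgeR 4.0.16 (quasi-likelihood fit over the 4 groups, filterByExpr with a minimum count of 10, Benjamini-Hochberg adjustment over all genes tested, threshold 0.05). For values relative to Alb, the Alb count replaced the library size. Groups came from the sample labels, with 4 mice each. The p-values rest on the spread between these mice, with that of each gene drawn in part from all genes tested. The members and lists were chosen with earlier results of these data known. Every member was accounted for, the receptors, liver-enriched genes, droplet coat genes and members past the threshold in every mouse, and of the wider list the 3 largest rises and falls past the threshold. Alternatives were DESeq2 1.42.0, its size factors, other filters, library size alone, a replicate block, the 8 mice of a comparison alone, merged control pairs, the study's thresholds, another hepatocyte reference and each mouse left out. The fits were tested on simulated data. Counting intervals (95%, exact binomial) and the floor of 3 counts cover counting error only. Imaging and staining data were not analysed here.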

Additional observations from a re-analysis of the deposited data

Results flagged for a closer look

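Some values stood apart from the other mice of their group by Dixon's test, in 8 of 117 groups of 4 mice, where 5.85 would be expected by chance. KN046 mouse 1 was the high mouse for Cidec (14.2 CPM, against 0.883 to 3.07 in the other 3), Plin4 (74.1 CPM, against 20.4 to 24.4), Acadl (222 CPM, against 145 to 157) and Acot1 (8.10 CPM, against 1.62 to 2.58). KN046 mouse 2 was high for Fgf21 (8.21 CPM, against 0.335 to 1.33). Control mouse 1 was high for Ppargc1a (1.66 CPM, against 0.659 to 0.784), SB525334 mouse 2 for Mfsd2a (0.796 CPM, against 0.0860 to 0.181) and combination mouse 2 for Acadl (154 CPM, against 122 to 123).

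The effect of SB525334 differed between mice with and without KN046, by the interaction term in edgeR, for 7 genes. The interaction was -3.39 (adjusted p = 0.000767) for Creb3l3, -6.74 (adjusted p = 0.0212) for Cyp4a14, -3.66 (adjusted p = 0.00471) for Plin5, -2.64 (adjusted p = 0.00242) for Fabp4 and -2.30 (adjusted p = 0.0160) for Ehhadh. It was -5.98 (adjusted p = 0.00471) for Fabp1 and -5.14 (adjusted p = 0.00430) for Acaa1b, whose fitted sizes rest on 1 or 2 counts in the combination and are no bounds. The sizes for Cyp4a14 and Plin5 rest on 4 and 9 counts in the combination and are uncertain. Alb moved in the same direction, and its part in these values was not tested.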

How the results depend on the processing

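The number of listed genes that fell with SB525334 was 17, and 16 to 19 under the alternatives and with 1 mouse left out; the number that fell with the combination was 20, and 17 to 20. The number that rose with KN046 was 9, but 5 with library size alone, 1 with the 8 mice alone, 0 with merged control pairs, and 0 to 12 with 1 mouse left out; without KN046 mouse 1 the log2 fold changes of the 9 were also smaller (2.12 to 1.07 for Pdk4, 3.23 to 1.94 for Cidec). Lower with KN046 were 0 genes, 1 by the study's thresholds (fold above 2, unadjusted p), and 0 to 1 with 1 mouse left out. Lower in the combination than with SB525334 were 5 genes, 8 by DESeq2, 3 with the 8 mice alone and 10 by the study's thresholds. Higher in the combination than with KN046 were 0, and 0 to 1 with 1 mouse left out. The interaction was lower for 7 genes, 12 by DESeq2 and 13 by the study's thresholds, and higher for 0, and 1 by the study's thresholds. Relative to Alb, 3 genes rose with KN046, 6 with other hepatocyte genes as reference, 5 with a mean of at least 1 CPM, 0 with merged control pairs and 0 to 4 with 1 mouse left out. The log2 fold change of Fgf21 with KN046 was 0.01, and -1.64 to 0.38 with 1 mouse left out. The cause of these changes was not tested.

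Mice with the same number did not deviate together: 7 of 24 same-numbered pairs had a correlation of deviations over 0.1, the correlations ranged from -0.370 to 0.407, and 6 pairs of mice correlated best with their own number. With the number as a replicate block, 18 genes fell with SB525334, 7 rose with KN046, 19 fell with the combination, 25 were lower in the combination than with KN046, 5 were lower than with SB525334, and the interaction was lower for 7. Low counts limit the genes near 0 in the combination, where 1 to 3 counts in 4 mice leave wide intervals.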
